A study of Mus musculus with 12 samples.

Results

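The genes described here are the 4 kinases that phosphorylate the translation factor eIF2α, together with 3 genes that act on them or against them. The kinases were Eif2ak1 (HRI), Eif2ak2 (PKR), Eif2ak3 (PERK) and Eif2ak4 (GCN2), and the other genes were Oma1, Ppp1r15b and Impact. They were chosen by gene symbol, and all 7 were found among the 15113 genes of the count table, each on 1 row. RNA came from C2C12 cells, a mouse myoblast line, grown in 10% fetal bovine serum, fused into myotubes in 2% horse serum and used at passages 2 to 5. Myotubes received 20 μM BAM15, a mitochondrial uncoupler, in DMSO or vehicle for 16 h, and 6 libraries were made per condition. Libraries were prepared with QuantSeq and read for 50 bp, so that each count is a 3′ tag and does not scale with the length of the transcript. The passages and the read length are those of the sample labels, and the methods of the study give later passages and longer reads.

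Each of the kinases answers to a different signal. HRI senses heme shortage and relays mitochondrial stress, PKR binds double-stranded RNA, PERK senses unfolded protein in the endoplasmic reticulum and GCN2 senses uncharged tRNA. All of them place a phosphate on eIF2α, which lowers general protein synthesis and favours translation of stress factors such as ATF4, a program known as the integrated stress response. OMA1 is a protease of the inner mitochondrial membrane that is activated when membrane potential falls and cleaves DELE1, which then binds HRI, whereas IMPACT restrains GCN2 and PPP1R15B directs protein phosphatase 1 to eIF2α. Their activity is set largely on the protein, and the present measurements are of RNA alone.

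Between 13983725 and 18751780 reads were counted on genes in the BAM15 libraries and between 15299135 and 18866728 in the vehicle libraries. The labels do not say whether libraries of a condition came from separate cultures, so p-values measure the spread between these libraries, which may be technical. BAM15 libraries 5 and 6 stood apart from BAM15 libraries 1 to 3, where the chi-square of their counts came to 37.92 to 73.04 for each gene on average, against 5.79 to 10.16 among libraries 1 to 3 and 8.47 between 5 and 6. BAM15 library 4 lay between, nearer to libraries 1 to 3 (13.52 to 22.65) than to 5 and 6 (24.63 and 26.32). Between BAM15 libraries 4 to 6 and 1 to 3, 3081 of 12730 tested genes (24.2%) differed at an adjusted p below 0.01 in edgeR's quasi-likelihood test, and values within each set of numbers are therefore given below. With BAM15 libraries 5 and 6 left out, a choice made after seeing the data, 4 of the 7 genes again passed the test of BAM15 against vehicle, 3 upward and 1 downward. In that fit 5980 of all 12925 tested genes passed, 3099 upward and 2881 downward. Between the same numbers of the vehicle libraries the test called 0 genes, and 696 had an unadjusted p below 0.05. All 10 myotube markers were present, at a summed level of 24200 to 29300 CPM (counts scaled to a library of fixed size) under BAM15 and 25900 to 29400 CPM in vehicle. At an adjusted p below 0.01, 2 of these myotube markers rose and 3 fell. The 8 markers of undifferentiated or dividing myoblasts summed to 166 to 219 CPM under BAM15 and 363 to 414 CPM in vehicle. Of these myoblast markers 5 fell (20.3% of all tested genes did) and 1, Myf5, rose (22.0% did). Of the adipocyte markers 1 of 4 was in the table, at no more than 0.16 CPM, and of the osteoblast markers 1 of 3, at no more than 0.855 CPM. The part of the lower myoblast marker level in the results below was not tested, and in bulk RNA fewer cells of a type and less RNA per cell cannot be told apart.

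BAM15 changed the RNA of 4 of the 7 genes at an adjusted p below 0.01, 3 upward (Ppp1r15b, Impact and Eif2ak3) and 1 downward (Eif2ak2). The same threshold was passed by 42.3% of all tested genes, 22.0% upward and 20.3% downward, so the count among the 7 lay near the background. The BAM15 and vehicle libraries did not overlap for 3 of the 7 genes, which held for 34.2% of all tested genes (17.1% with BAM15 above and 17.0% with BAM15 below). When the study's thresholds were applied (adjusted p below 0.01, mean normalized count above 50 and a change of more than 2-fold), Ppp1r15b alone of the 7 passed, against 7.27% of all tested genes (3.70% upward and 3.57% downward). Its call by these thresholds was lost without BAM15 library 5, where the log2 fold change was 0.9993, without BAM15 libraries 5 and 6, where it was 0.95, and in a fit of libraries 1 to 3 alone, where it was 0.85. Over all tested genes the log2 fold change had a median of 0.02. The plot of the 7 genes by library gives every value.

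**Figure D1:**
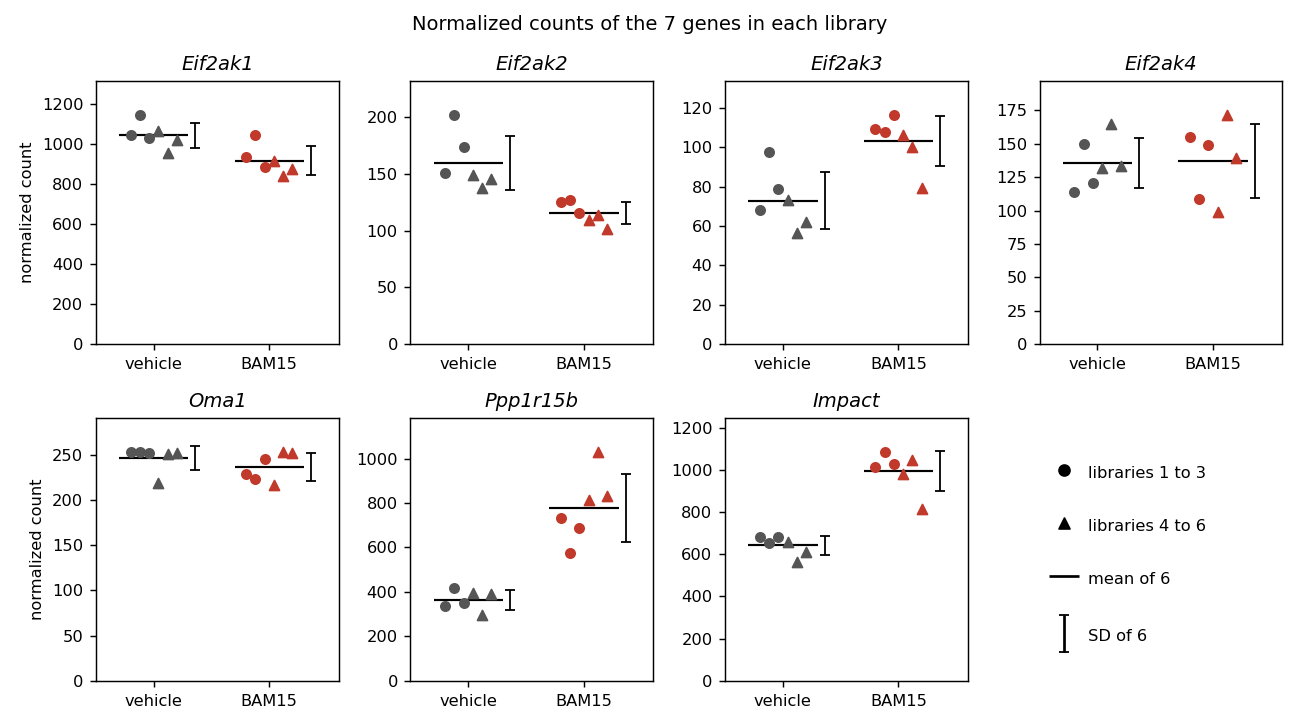
Normalized count (TMM-scaled reads, y axis from 0) of each of the 7 genes in the 6 vehicle (grey) and 6 BAM15 (red) libraries, with circles for libraries 1 to 3, triangles for libraries 4 to 6, a line at the mean and a bar for the SD. Ppp1r15b and Impact lie higher and Eif2ak2 lower in all 6 BAM15 libraries than in any vehicle library, whereas the 2 groups overlap for the other 4 genes.

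Among the kinases, Eif2ak1 had the most counts. This gene (ENSMUSG00000029613, chr5:143817788-143904251 on GRCm38, plus strand) encodes HRI, the kinase to which the OMA1 and DELE1 relay leads. Its normalized count ranged from 840.2 to 1048.7 (median 901.6) under BAM15 and from 955.5 to 1144.8 (median 1038.6) in vehicle. The 2 ranges overlapped, because BAM15 library 2 lay above 4 of the 6 vehicle libraries. The mean was 917.5 ± 72.3 (SD, n = 6) against 1044 ± 61.8, a log2 fold change of -0.19 with a standard error (SE) of 0.06. In edgeR's quasi-likelihood test the adjusted p (Benjamini-Hochberg) was 0.0205, outside the threshold, and it was 0.00433 without BAM15 library 2. Within libraries 1 to 3 the log2 fold change was -0.17, and within libraries 4 to 6 it was -0.21.

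The RNA of PKR fell. Eif2ak2 (ENSMUSG00000024079, chr17:78852564-78882573, minus strand) is itself known as an interferon-stimulated gene. Its normalized count ranged from 101.2 to 127.0 (median 114.6) under BAM15 and from 137.7 to 201.4 (median 149.9) in vehicle. Every BAM15 library lay below every vehicle library. The mean was 115.3 ± 9.60 against 159.5 ± 23.8 (SD, n = 6 each), a log2 fold change of -0.47 (SE 0.11, 95% confidence interval -0.69 to -0.24) with an adjusted p of 0.00163 in edgeR's quasi-likelihood test. A fit of libraries 4 to 6 alone gave -0.42 with an adjusted p of 0.0300, which misses the threshold. Here 1 library held 87 to 190 counts of the gene, so counting error alone gives a coefficient of variation of 7.8% in vehicle and 9.4% under BAM15, against 14.9% and 8.3% measured.

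The interferon-stimulated response element is the sequence through which interferon acts on its target genes, and it was searched for in RefSeq promoter windows of GRCm38.p6 (250 bases before the start site to 50 after it). The windows were matched for 5 of the 7 genes, Eif2ak1 to Eif2ak4 and Oma1, with 2 windows for Eif2ak4, and not for Ppp1r15b and Impact. The element, spelled GAAANNGAAA and searched on both strands, was found in the Eif2ak2 window alone of these, beginning at base 19 of the transcript, and 3.44% of all 32851 windows hold it. The 30 bases around it (chr17:78882535-78882564, minus strand) are shown with the element in capitals. Whether the element bears on the change of Eif2ak2 RNA was not tested.
Eif2ak2: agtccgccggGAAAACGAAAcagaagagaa
A match describes these letters and not a bound site. Of 14 other interferon-stimulated genes tested, 2 rose, 1 fell and 11 did not pass the test, where 42.3% of all tested genes passed, and the median log2 fold change was 0.14. Several of these genes had mean normalized counts of only 10.3 to 44.3, where a change is harder to call. Irf9 (log2 fold change 0.54) and Mx2 (1.98, from 4.04 normalized counts in vehicle to 16.9) rose, and Stat2 fell by 0.47 on the log2 scale. IRF9 and STAT2 are partners in the factor that binds the element, and their RNAs moved in opposite directions.

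The RNA of PERK was higher under BAM15. Eif2ak3 (ENSMUSG00000031668, chr6:70844515-70905245, plus strand) had the fewest counts of the kinases. Its normalized count ranged from 79.1 to 116.2 (median 107.0) under BAM15 and from 56.5 to 97.5 (median 70.9) in vehicle. The groups overlapped through BAM15 library 6, the lowest, and vehicle library 2, the highest of its group. The mean was 103.1 ± 12.9 against 72.8 ± 14.5 (SD, n = 6 each), a log2 fold change of 0.51 (SE 0.14, 95% confidence interval 0.21 to 0.80) with an adjusted p of 0.00593 in edgeR's quasi-likelihood test. This call was close to the threshold. The adjusted p rose to between 0.0108 and 0.0165 when BAM15 library 1, 2, 3 or 4 or vehicle library 1, 4, 5 or 6 was left out, and to 0.0240 and 0.0267 in fits of libraries 1 to 3 and of libraries 4 to 6, while the log2 fold change stayed between 0.44 and 0.60.

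The Eif2ak3 promoter held more CCAAT boxes than those of the other kinases. The box, spelled CCAAT and searched on both strands, is the short element bound by the factor NF-Y, and it forms part of the endoplasmic reticulum stress element. It occurred 6 times in the window of Eif2ak3, first at -237, -221, -178, -140, -85 and -20 relative to the start site, once in that of Eif2ak1 (at -88) and not in those of Eif2ak2, Eif2ak4 and Oma1. At least 1 box is present in 37.41% of all windows and at least 6 in 0.079%. The 250 bases before the start site (chr6:70844265-70844514, plus strand) are shown with each box in capitals, reading ATTGG where it lies on the minus strand.
Eif2ak3: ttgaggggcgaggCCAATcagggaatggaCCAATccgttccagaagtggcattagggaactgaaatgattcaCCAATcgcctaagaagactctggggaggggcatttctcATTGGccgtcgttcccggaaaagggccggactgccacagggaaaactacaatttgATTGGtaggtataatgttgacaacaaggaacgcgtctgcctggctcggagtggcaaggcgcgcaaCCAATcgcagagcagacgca
The complete endoplasmic reticulum stress element (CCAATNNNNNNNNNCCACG, in 0.12% of all windows), the cAMP response element (TGACGTCA, 1.79%) and the ATF4 element (TGATGCAA, 0.89%) were not found in any of these 6 windows, on either strand, which says only that these letters are not there. Genes of the other branches of the endoplasmic reticulum stress response, ATF6 and XBP1, were taken as a list of 15 with Hspa5 among them. Of these, 11 rose (22.0% of all tested genes did), 0 fell and 4 did not pass the test, with a median log2 fold change of 0.88, and examples are Ern1, the stress sensor IRE1 (1.56), Herpud1, of protein degradation at the reticulum (1.36), and Sdf2l1, a chaperone cofactor (1.11).

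GCN2 RNA could not be told from vehicle. Eif2ak4 (ENSMUSG00000005102, chr2:118388618-118475234, plus strand) had a normalized count of 99.0 to 171.2 (median 144.3) under BAM15 and of 114.1 to 164.4 (median 132.4) in vehicle. The BAM15 libraries took both the lowest and the highest place among all 12. The mean was 137.1 ± 27.9 against 135.6 ± 18.6 (SD, n = 6 each), a log2 fold change of 0.02 (SE 0.14) with an adjusted p of 0.918 in edgeR's quasi-likelihood test. The 95% confidence interval, -0.28 to 0.31, leaves room for a change of either sign, and the sign itself turned when BAM15 library 1, 3 or 5 or vehicle library 1 or 3 was left out (range over the 12 libraries left out in turn -0.05 to 0.10). The spread of this gene under BAM15 was the widest of the 7, with a coefficient of variation of 20.3% against 8.6% for counting error alone.

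When the 4 kinases were added up, their summed normalized count was 1273 ± 72.4 under BAM15 and 1412 ± 95.7 in vehicle (SD, n = 6 each), with overlapping ranges of 1198 to 1392 and 1314 to 1593. HRI made up most of the kinase tags in both conditions, at 72.03% ± 2.72 under BAM15 and 73.98% ± 1.57 in vehicle. The share of PKR was 9.05% ± 0.35 (8.45% to 9.43%) under BAM15 and 11.26% ± 0.98 (10.48% to 12.64%) in vehicle, without overlap. The share of PERK was 8.10% ± 0.88 (6.60% to 9.19%) against 5.12% ± 0.68 (4.30% to 6.12%), also without overlap and in the opposite direction. PERK was the least frequent kinase tag in every vehicle library and in all BAM15 libraries but 3 and 4. The share of GCN2 was 10.82% ± 2.42 under BAM15 and 9.64% ± 1.51 in vehicle, and these ranges overlapped. Shares sum to the whole and are given without a test, and differences in capture between genes were not measured.

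**Figure D2:**
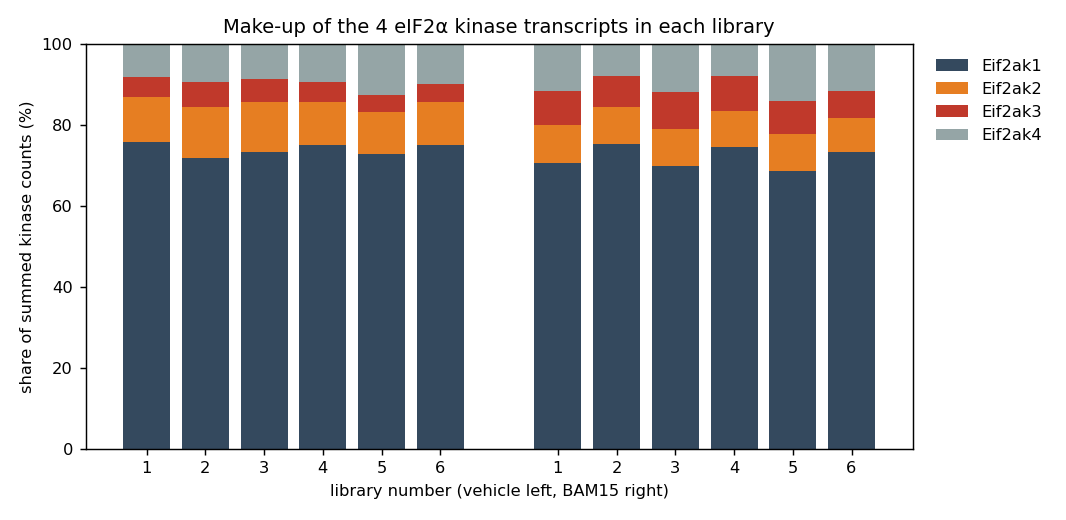
Share of each kinase gene in the summed 3′ tag counts of the 4 kinases (percent, y axis from 0 to 100) in each of the 6 vehicle (left) and 6 BAM15 (right) libraries. Eif2ak1 fills 68.55% to 75.86% of every bar, the Eif2ak3 segment is larger in all BAM15 bars (6.60% or more) than in any vehicle bar (6.12% or less), and the Eif2ak2 segment is smaller.

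IMPACT, the protein that binds GCN1 in competition with GCN2 and so keeps the kinase in check, was the second gene of the 7 by effect size. Its normalized count (ENSMUSG00000024423, chr18:12955852-12992950, plus strand) ranged from 816.6 to 1084.2 (median 1020.4) under BAM15 and from 563.0 to 683.5 (median 655.6) in vehicle. Every BAM15 library lay above every vehicle library. The mean was 995.0 ± 94.0 against 641.9 ± 46.6 (SD, n = 6 each), 1.55-fold higher, with a log2 fold change of 0.63 (SE 0.07, 95% confidence interval 0.48 to 0.79) and an adjusted p of 3.69e-06 in edgeR's quasi-likelihood test. The change was 0.63 within libraries 1 to 3 and 0.64 within libraries 4 to 6.

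Relative to its kinase, Impact was higher, which follows from its own rise beside a log2 fold change of 0.02 for Eif2ak4. The ratio was chosen with earlier results of these data known, so its test is not separate support. Within a library there were on average 7.34 Impact tags per Eif2ak4 tag under BAM15 and 4.74 in vehicle, a difference of 0.63 in the mean log2 ratio. The log2 ratio ranged from 2.54 to 3.31 under BAM15 and from 1.77 to 2.58 in vehicle, so that the groups overlapped by a narrow margin. The exact two-sided permutation test over the 12 libraries gave p = 0.00433, and 0.00649 after Benjamini-Hochberg adjustment over the 3 ratios tested. Gcn1 (listed as Gcn1l1), which GCN2 needs for activation, rose by a log2 fold change of 0.43 with an adjusted p of 0.000770.

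Ppp1r15b showed the largest change of the 7. It encodes CReP, the subunit that directs protein phosphatase 1 to eIF2α in unstressed cells (ENSMUSG00000046062, chr1:133131143-133139783, plus strand). Its normalized count ranged from 573.9 to 1029.2 (median 773.8) under BAM15 and from 294.9 to 419.8 (median 371.2) in vehicle. Every BAM15 library lay above every vehicle library, with a gap between the groups. The mean was 778.3 ± 154 against 364.3 ± 45.8 (SD, n = 6 each), 2.14-fold higher, with a log2 fold change of 1.10 (SE 0.12, 95% confidence interval 0.83 to 1.36) and an adjusted p of 2.92e-06 in edgeR's quasi-likelihood test.

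The counts within BAM15 differed between the sets of libraries. BAM15 libraries 1 to 3 held 573.9 to 733.3 normalized counts of Ppp1r15b and BAM15 libraries 4 to 6 held 814.3 to 1029.2, without overlap, whereas vehicle libraries 1 to 3 (335.2 to 419.8) and 4 to 6 (294.9 to 393.8) overlapped. The log2 fold change was 0.86 (SE 0.13) within libraries 1 to 3 and 1.31 (SE 0.13) within libraries 4 to 6. The difference of 0.45 (SE 0.19) had an unadjusted p of 0.0262 and an adjusted p of 0.140 in edgeR's quasi-likelihood test of the difference itself, so that the rise was present in both sets of libraries and its difference between them did not pass. For the other 6 genes the adjusted p of this difference was between 0.664 and 0.986. Over all genes the test of the difference called 0 at an adjusted p below 0.01, with 3313 at an unadjusted p below 0.05, and it called 1040 when BAM15 library 4 was left out.

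**Figure D3:**
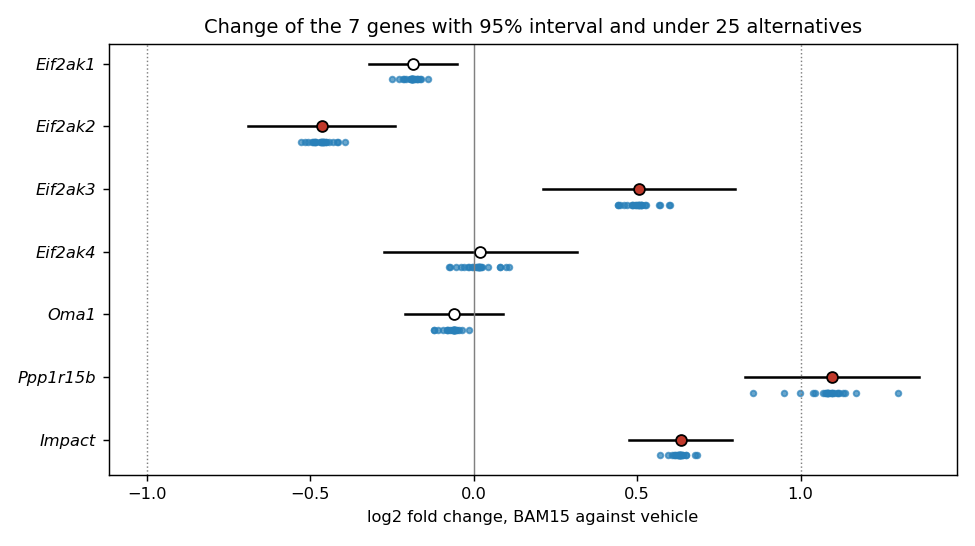
Log2 fold change of the 7 genes, BAM15 against vehicle (x axis), with the 95% confidence interval as a line, a filled point where the adjusted p was below 0.01, and small blue points for the values under 25 alternative settings. Ppp1r15b (1.10) and Impact (0.63) stay above 0 under each alternative and Eif2ak2 (-0.47) below it, whereas Eif2ak4 (0.02) takes both signs, and dotted lines mark a 2-fold change.

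The stress-induced counterpart of Ppp1r15b is Ppp1r15a, which encodes GADD34 and is a target of the integrated stress response. Its mean normalized count was 142.2 in vehicle and 1778 under BAM15, a log2 fold change of 3.64 with an adjusted p of 2.56e-08. Vehicle cells thus held 2.57 Ppp1r15b tags for each Ppp1r15a tag and BAM15 cells 0.454. The log2 ratio ranged from 1.25 to 1.56 in vehicle and from -1.50 to -0.85 under BAM15, so that Ppp1r15b was the more frequent tag in all 6 vehicle libraries and the less frequent one in all 6 BAM15 libraries. The difference in log2 ratio was -2.50, with an exact two-sided permutation p of 0.00217, the smallest that the 924 arrangements allow, and 0.00649 after adjustment over the 3 ratios. This difference follows from the changes of the 2 genes in the same libraries. The ratio was also chosen with earlier results of these data known, so its p is not separate support. Of the 5 phosphatase genes listed, these 2 rose (22.0% of all tested genes did), 0 fell and the 3 catalytic subunit genes did not pass the test. The share past the test was near the 42.3% of all tested genes, and the list includes Ppp1r15b itself.

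**Figure D4:**
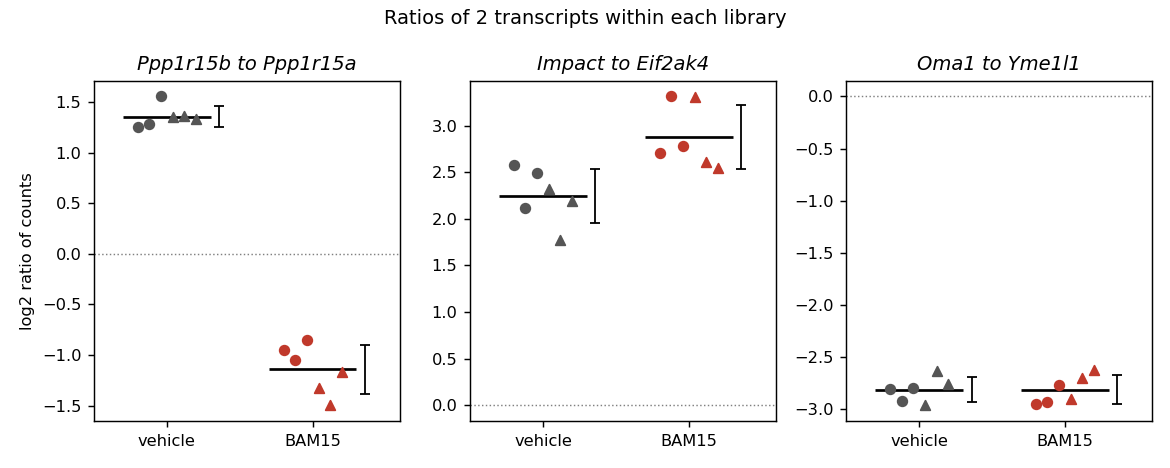
Log2 ratio of the counts of 2 genes within each library (y axis, own scale per panel, dotted line at equal counts where shown) for vehicle (grey) and BAM15 (red), with circles for libraries 1 to 3, triangles for libraries 4 to 6, a line at the mean and a bar for the SD. The ratio of Ppp1r15b to Ppp1r15a crosses from 1.25 or more to -0.85 or less, that of Impact to Eif2ak4 rises from a mean of 2.25 to 2.88, and that of Oma1 to Yme1l1 has a mean of -2.81 in both groups.

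Oma1 did not pass the test. The gene (ENSMUSG00000035069, chr4:103313812-103371868, plus strand) encodes the protease at the head of the mitochondrial relay. Its normalized count ranged from 216.1 to 252.6 (median 236.9) under BAM15 and from 219.0 to 252.7 (median 251.8) in vehicle. The ranges were almost the same, and 5 of the 6 vehicle libraries lay between 250.7 and 252.7. The mean was 236.1 ± 15.7 against 246.4 ± 13.4 (SD, n = 6 each), a log2 fold change of -0.06 (SE 0.07) with an adjusted p of 0.484 in edgeR's quasi-likelihood test. The 95% confidence interval of -0.21 to 0.09 bounds the change at this depth. YME1L1 is the protease of the same membrane that shares the substrate OPA1 with OMA1. There were 0.142 Oma1 tags for each Yme1l1 tag in either condition, with an exact two-sided permutation p of 0.996.

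Around Oma1, the list of 12 genes of inner membrane proteolysis and its relay to HRI held 5 that rose, 0 that fell and 7 that did not pass the test, with a median log2 fold change of 0.19. The share past the test was near the 42.3% of all tested genes, and the share that rose stood beside 22.0%. Chchd10, a small protein of the intermembrane space, rose by 3.15 and Lonp1, the matrix protease, by 1.48. Afg3l2, a subunit of the membrane-bound AAA protease, rose by 0.50 and Parl, the rhomboid protease, by 0.35. Phb2, also on the list, rose by 0.23 (adjusted p = 0.00166 in edgeR's quasi-likelihood test). Dele1, Opa1 and Yme1l1, named above beside OMA1, did not pass. For Dele1 the log2 fold change was 0.28 (455.6 ± 63.7 against 376.1 ± 47.8 normalized counts, adjusted p = 0.0365), for Opa1 it was 0.12 (adjusted p = 0.170) and for Yme1l1 it was -0.06 (adjusted p = 0.353), all in edgeR's quasi-likelihood test.

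HRI is also held by heme and by chaperones. Of 14 genes of heme synthesis and breakdown, 4 rose, 2 fell and 8 did not pass the test, a share near the 42.3% of all tested genes that passed, with a median log2 fold change of 0.13. Cpox, a late enzyme of synthesis, rose by 2.10 and Hmox1, the inducible enzyme of heme breakdown, by 2.05, while Blvrb (0.67) and Blvra (-0.46), the biliverdin reductases, moved in opposite directions. Of 15 regulators of the kinases, 6 rose (22.0% of all tested genes did), 0 fell and 9 did not pass the test. The share past the test in either direction was near 42.3%, and the median log2 fold change was 0.26. The regulators that rose included Hspa5, the chaperone BiP that binds PERK (1.97), and Hsp90aa1 (0.96) and Hsp90ab1 (0.42), which encode the chaperone HSP90 of HRI. Dnajc3, an inhibitor of PKR and PERK, rose as well (0.20, adjusted p = 0.00396 in edgeR's test).

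Downstream of the kinases, the substrate itself gave no call. Eif2s1, which encodes eIF2α, had 1304 normalized counts under BAM15 and 1280 in vehicle, a log2 fold change of 0.03 with an adjusted p of 0.849 in edgeR's quasi-likelihood test. Of the 16 genes of eIF2, its exchange factor eIF2B and related initiation factors, 4 rose, 0 fell and 12 did not pass the test, near the 22.0% of all tested genes that rose and below the 42.3% that passed, with a median log2 fold change of 0.08. The 4 were Eif2s2, the β subunit of eIF2 (0.81), Eif5, its GTPase-activating partner (0.69), Bzw2, which resembles eIF5 in part (0.54), and Eif2b3, a subunit of the exchange factor (0.46).

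The output genes of the integrated stress response changed far more than the 7 genes. All 14 on the list rose and passed the study's thresholds, which 3.70% of all tested genes passed upward. Their log2 fold changes were 1.44 to 5.65 with a median of 3.35, beside a median of 0.02 over all tested genes. Atf4, the transcription factor of the response, rose by 2.10, Trib3, a pseudokinase, by 5.65, Atf3, a transcription factor, by 4.71, Chac1, an enzyme of glutathione breakdown, by 3.63 and Asns, asparagine synthetase, by 2.33. This list was written with results of these same libraries known, so it is not independent evidence of its direction. Of the 4 kinases, the log2 fold change lay between -0.47 and 0.51, and none exceeded 2-fold in either direction. The plot of the lists sets these changes side by side.

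**Figure D5:**
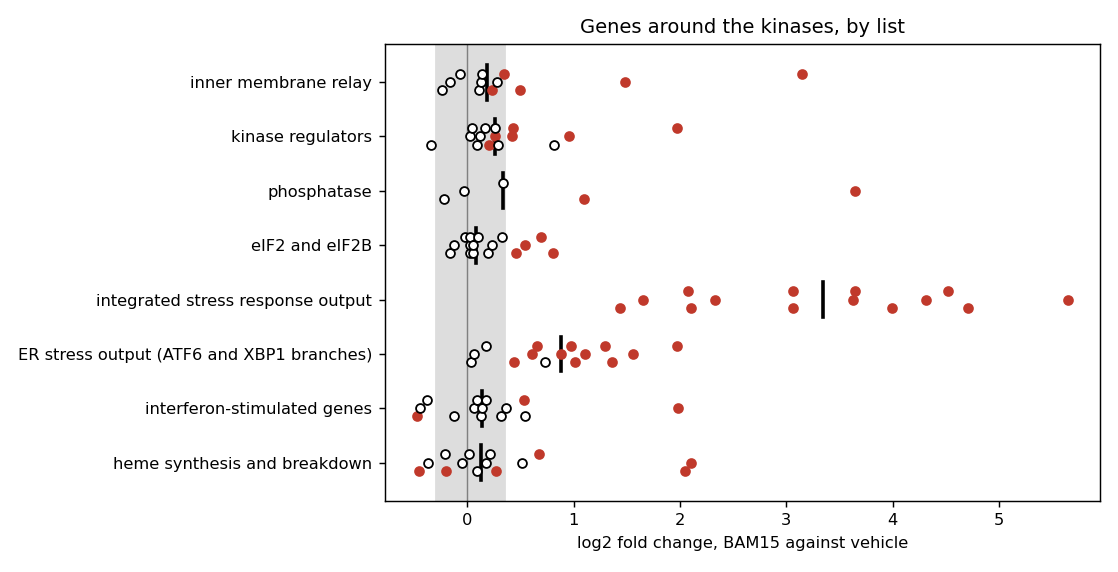
Log2 fold change, BAM15 against vehicle (x axis), of each tested gene on 8 lists around the kinases, filled where the adjusted p was below 0.01, with a bar at each list's median and a grey band from the lower (-0.29) to the upper (0.36) quartile of all tested genes. The medians of the inner membrane relay (0.19), the kinase regulators (0.26), the phosphatase genes (0.34), eIF2 and eIF2B (0.08), the interferon-stimulated genes (0.14) and the heme genes (0.13) lie within the band. That of the endoplasmic reticulum stress output (0.88) lies to its right, and that of the integrated stress response output (3.35) far to its right.

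The transcripts of the 7 genes differ in what precedes their coding sequence. In the GENCODE M21 annotation the Impact leader of 414 bases held 8 upstream ATG triplets and 6 complete upstream reading frames, and the Ppp1r15b leader of 604 bases held 3 of each. Eif2ak3 had 3 upstream ATG triplets and 1 complete frame in 211 bases, and Eif2ak2 had 1 ATG in 190 bases. In Eif2ak1, Eif2ak4 and Oma1, with leaders of 103, 91 and 91 bases, no upstream ATG was found. At least 1 upstream ATG was present in 52.5% of 11553 tested genes with an annotated leader, whose median length was 184 bases. Among the 7, the genes with an upstream ATG were the 4 that passed the test, which is given as a description and was noticed after the values were seen. It depends on the threshold, since Eif2ak3 lost its call in 10 of 25 alternatives and Eif2ak1, without an upstream ATG, passed in 4. Whether genes with an upstream ATG passed more often over all tested genes was not tested. The last 400 bases, the region that QuantSeq reads, were checked in 1 main annotated transcript per gene. None of them overlapped an exon of another gene, and none of their 351 windows of 50 bases occurred in the transcripts of another gene. For Oma1 this transcript ends at base 103366443, before the annotated end of the gene at 103371868. Where the reads of each gene fell was not tested.

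Across the 12 libraries the 7 genes did not move as 1 group. Over deviations from the condition means, Eif2ak1, Eif2ak2, Eif2ak3 and Impact were all positively correlated with one another (Pearson r of 0.47 to 0.89). The highest r of any pair was that of Eif2ak2 and Eif2ak3, although BAM15 moved these genes in opposite directions and their r over all 12 libraries was -0.32. Whether single libraries shifted many genes at once was not tested. Ppp1r15b and Impact, with an r of 0.86 over the 12 libraries, gave an r of -0.06 over the deviations. The genes most like Ppp1r15b over the 12 libraries, among 10467 genes with a mean above 50, were Wdr75 (r = 0.996), Dut (0.990) and Otud1 (0.988), and those most like Impact were Irf2bp2 (0.975), Cldnd1 (0.975) and Khnyn (0.974). The closest for Eif2ak1 was Arhgap11a (0.945), for Eif2ak2 Vangl1 (0.940), for Eif2ak3 Zfp605 (0.954), for Eif2ak4 Snx24 (0.817) and for Oma1 Zfp707 (0.898). These values describe libraries that share the condition and the difference between numbers 1 to 3 and 4 to 6.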

How the data were processed

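RNA of C2C12 myotubes given BAM15 or vehicle was analysed from 6 libraries each. The authors deposited whole-number counts of 3′ reads per Ensembl gene, without normalization. They used BlueBee software, and the aligner, annotation and strand setting are not given in the sources used here. The submitters' processing notes name DESeq2 1.22.2, GRCm38 and mm10. A second deposited table of normalized signal was made by dividing each library's counts by its size factor, and it supplied gene symbols only. The tables also hold 11 columns of other samples, which were not used.

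The counts were analysed with edgeR 4.0.16 (R 4.3.3). The filter filterByExpr removed 2383 of 15113 genes, library sizes were scaled by TMM, a robust quasi-likelihood model with the condition as its term was used, and Benjamini-Hochberg adjustment covered the 12730 genes left. Normalized counts are counts divided by TMM-scaled library size, relative to the mean. Positions, leaders and 2260 missing symbols came from GENCODE M21 (GRCm38). Promoter windows came from RefSeq (GRCm38.p6). Ratios within a library were taken as log2 after adding 0.5 to each count, and tested with exact permutation tests in scipy 1.17.1. Figures were drawn with matplotlib 3.10.9. The scripts were tested on simulated data.

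Alternatives were DESeq2 1.42.0, limma-voom (limma 3.58.1), other scalings and filters, no robust moderation, blocks for the library number and for numbers 1 to 3 against 4 to 6, each set of numbers alone, BAM15 libraries 5 and 6 left out, other thresholds or pseudocounts and each library left out in turn. The 7 genes, the lists, the markers and the tests were chosen with earlier results of these data known. All 7 genes are named, and from each list up to 4 genes with the lowest p among those past an adjusted p of 0.01, with Ppp1r15a, Yme1l1, Dele1, Gcn1, Opa1, Dnajc3, Eif2s1 and Atf4 in any case. Myf5, Phb2 and the patterns within the leaders were named after their values were seen. Genes alike in pattern are the 3 with the highest Pearson r of log2 CPM, of which the first is given for 5 genes.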

Additional observations from a re-analysis of the deposited data

Results flagged for a closer look

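In 28 sets of 6 libraries (the normalized counts of the 7 genes, the 3 ratios and the 4 kinase shares, in each condition), 3 held a library far from the others by Dixon's test, which chance does in about 1 of 20 sets. Oma1 had 219.0 normalized counts in vehicle library 4, against 250.7 to 252.7 in the other 5 vehicle libraries. The log2 ratio of Ppp1r15b to Ppp1r15a was 1.558 in vehicle library 3, the highest of its group, and remained above every BAM15 library. The share of Eif2ak4 in the kinase counts was 12.51% in vehicle library 5, also the highest of its group.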

How the results depend on the processing

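Ppp1r15b (log2 fold change 0.85 to 1.30), Impact (0.57 to 0.68) and Oma1 (-0.12 to -0.02) kept their direction and their side of the threshold under all 25 alternatives. Eif2ak2 lost its call with libraries 4 to 6 only, and Eif2ak3 in 10 alternatives given in the report. Eif2ak1 passed in 4, by library size scaling (adjusted p = 0.00114), DESeq2's Wald test (0.00666), the block for numbers 1 to 3 against 4 to 6 (0.00952) and without BAM15 replicate 2 (0.00433). Eif2ak4 turned to -0.0019 with upper quartile scaling, -0.0403 with library size only -0.0719 with libraries 4 to 6 only and -0.0767 with BAM15 libraries 5 and 6 left out (added after seeing the data), and ranged from -0.0537 to 0.0971 with 1 library left out. With libraries 4 to 6 only, 2 of the 7 genes passed, and 4265 of all 12849 tested genes. Genes past the study's thresholds numbered 4632 without the fold threshold and 1457 without the mean threshold, against 926.

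With 3 libraries a group the exact test cannot go below 0.10, and Ppp1r15b to Ppp1r15a gave -2.3142 in libraries 1 to 3 and -2.6852 in libraries 4 to 6, Impact to Eif2ak4 0.5367 and 0.7227. Oma1 to Yme1l1 gave 0.0448 in libraries 4 to 6 and -0.0380 to 0.0348 with 1 library left out. The Eif2ak2 share differed by -2.753 percentage points in libraries 1 to 3 and -1.653 in libraries 4 to 6. The difference between the sets of numbers turned sign with 1 library left out for Eif2ak1 (-0.0919 to 0.0320), Eif2ak2 (-0.0011 to 0.2067), Eif2ak3 (-0.0139 to 0.2434), Eif2ak4 (-0.3772 to 0.0151) and Impact (-0.0730 to 0.1011). The count of genes with such a difference ranged from 0 to 1040, the latter without BAM15 replicate 4. The cause of these shifts was not tested.

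Libraries of the same number did not deviate together throughout (r of -0.094 to 0.524), and numbers 3 and 6 alone correlated best with their own number. With the replicate number as a block, 4 of the 7 genes passed, and 5292 of all genes against 5379. Eif2ak3 had the fewest counts of the 7, 55 to 124 per library, and counting error alone gives it a coefficient of variation of 9.9% to 11.6%.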
